A study of Heterocephalus glaber with 3 samples.

Results

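Ciliated airway cells were identified among cells dissociated from tumours in the lungs of the naked mole-rat, Heterocephalus glaber. They were the cells that passed quality limits (at least 1000 unique molecular identifiers, UMIs; at least 500 genes; under 20% of UMIs in 13 mitochondrial genes), held a UMI of at least 3 ciliary genes and had SFTPC, the surfactant gene of alveolar type 2 cells, below 100 per 10000 UMIs. The rule lists 8 ciliary genes, of which 5 are named in the deposited feature list: MORN5, RSPH1, CCDC78, CFAP43 and FOXJ1. In all, 137 of 25044 passing cells met the rule, 63 of 8078 in replicate 1, 21 of 9015 in replicate 2 and 53 of 7951 in replicate 3, and the SFTPC limit removed 0 cells. The 3 replicates are 3 animals with 1 library each, all in 1 group at 15 weeks after infection with a CRISPR adenovirus, whose edits include an Eml4-Alk inversion and the loss of Rb. Tumours were taken by hand out of inflated lungs and dissociated before capture with droplet 3′ chemistry, and whether airway lining was taken with the tumours is not given in the sources used here. The labels name no animals without edits, so cells were compared only with other cells of their own animal.

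Multiciliated cells line the conducting airways and clear mucus by beating many motile cilia. Their fate is set under low Notch signalling by a transcription programme that includes multicilin, MYB, TP73, RFX factors and FOXJ1. They then make many centrioles at once, dock them under the apical membrane and build axonemes from microtubule doublets, dynein arms that drive the bending, nexin links, radial spokes and a central pair, with parts carried along the cilium by intraflagellar transport. The cells are non-dividing and sit among secretory and basal cells.

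The rule selected cells by their content of ciliary transcripts, so the levels of those 5 genes are a description of the selection and were not tested. MORN5, a ciliary protein with MORN repeats, was at 746, 832 and 683 CPM (UMIs of the gene scaled to a total of 1000000 over the summed cells of 1 animal) in replicates 1, 2 and 3, and at 2.27, 1.63 and 1.52 CPM in all other passing cells. RSPH1, a radial spoke head protein, was at 488, 627 and 664 CPM against 1.92, 2.16 and 1.77 CPM. FOXJ1, the master transcription factor of motile cilia, was at 59.7, 49.9 and 28 CPM against 0.243, 0.134 and 0.0985 CPM, and was seen in 36 of 137 members. All 3 markers fixed for the label (MORN5, FOXJ1 and RSPH1) were present in every animal and near 0 in all other cells summed together. They are rule genes, so this describes the selection and is no separate support for the label. Of the members, 64 held 3 of the genes, 55 held 4 and 18 held 5. Just outside the rule lay 94 cells with exactly 2 of the genes. Their median depths were 31418.5, 33692 and 23367 UMIs and their MORN5 levels 27.9, 14.3 and 40.3 CPM in replicates 1, 2 and 3, whereas members with exactly 3 genes had median depths of 3953, 4467 and 4937.5 UMIs and MORN5 levels of 566, 885 and 464 CPM. Of the 94 cells, 75 held under 300 CPM of the rule genes (19.6 to 291 CPM) at 7555 to 118199 UMIs. The other 19 held 323 to 2592 CPM at only 1173 to 6188 UMIs, so the threshold also left out shallow cells whose content of rule genes reached that of members.

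**Figure D1:**
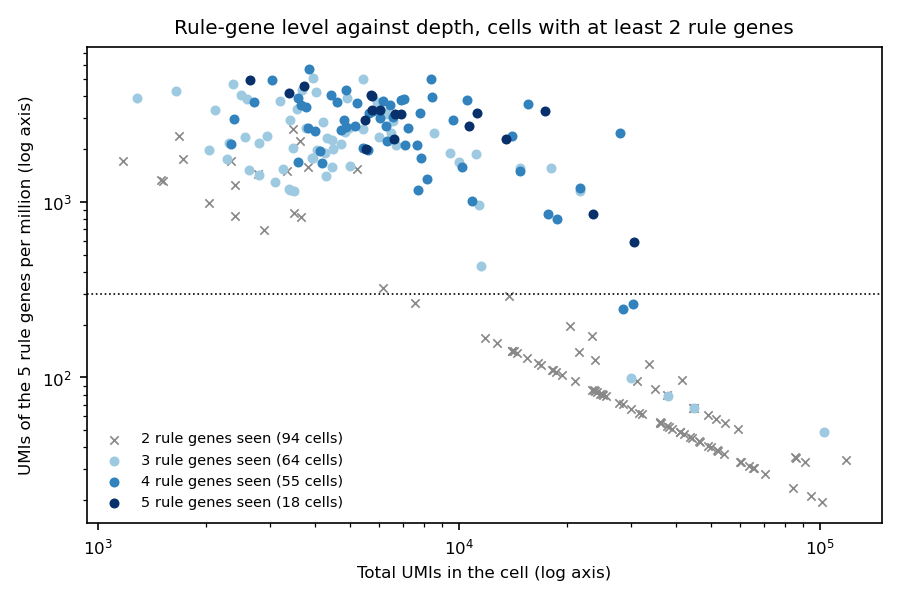
Total UMIs (x axis, log scale) against the summed level of the 5 rule genes in CPM (y axis, log scale) for each cell with at least 2 of them, coloured by the number seen. Most members lie between 433 and 5714 CPM, while 6 members under the dotted line at 300 CPM lie among the deep cells with 2 rule genes.

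A group of 6 members, 3 in replicate 1 and 3 in replicate 3, stood apart from the rest. They held 28534 to 102548 UMIs and only 48.8 to 262 CPM of the rule genes, against 433 to 5714 CPM (median 2582) and at most 30616 UMIs in the other 131. These 6 cells contributed 23.6% of all UMIs of the members, 353 of the 380 UMIs of the collagen gene COL1A1, 917 of the 972 of the secretory gene SCGB3A2, and only 2 of the 1229 of CAPS, a calcium-binding protein of ciliated cells. They thus held few of the transcripts that the other members shared, and values without them are given beside results below whose call or size changed when they were left out.

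The members otherwise carried the marks of an epithelial cell. EPCAM, the epithelial adhesion molecule, was at 545, 666 and 588 CPM against 31.7, 18 and 30.5 CPM in all other cells, and the summed level of 5 general epithelial markers was 1351, 1875 and 2291 CPM against 82.5, 47.7 and 105 CPM. Markers of leukocyte and stromal lineages were mostly at lower levels than in all remaining cells, and those of alveolar type 1 and mesothelial cells at higher levels. This order did not hold against the other epithelial cells described below. There 0 of 4 leukocyte, 0 of 4 macrophage and 0 of 2 T cell markers tested were lower (median log2 fold changes 0.35, 0.69 and 0.80). Of 2 alveolar type 1 markers 1 was lower there (median -2.96), and the 1 mesothelial marker tested was not called (-1.45). The summed level of 5 leukocyte markers (5 of 5 seen in each replicate) was 401, 621 and 470 CPM against 1356, 1752 and 1294 CPM in all other cells, and 33 members held a UMI of PTPRC. The 6 macrophage markers (6 of 6 seen) summed to 1031, 433 and 976 CPM against 3857, 4341 and 4825 CPM, and the 6 T cell markers to 131, 327 and 69.0 CPM against 545, 551 and 345 CPM. For 10 fibroblast and mural markers, with PDGFRB at 0 in each replicate, the sums of 2236, 189 and 188 CPM became 179, 189 and 130 CPM without the 6 deep members. Immunoglobulin transcripts reached 87690 CPM in replicate 2, where 1 member of 30616 UMIs held 15402 of the 15799 IGKC UMIs; without that cell IGKC was at 2653 CPM. The 7 alveolar type 2 markers summed to 249, 261 and 136 CPM against 994, 639 and 2462 CPM in all other cells and 176070, 155950 and 209940 CPM in the alveolar type 2 cells. SFTPC, which chose the alveolar type 2 cells, is 1 of the 7. The 2 alveolar type 1 markers named in the file, AGER and AQP5, summed to 312, 333 and 689.8 CPM against 47.4, 71.1 and 60.1 CPM, and both were called higher than in all other cells. The 3 mesothelial markers, with CALB2 at 0, summed to 169.6, 128 and 429 CPM against 16.9, 22.3 and 29.3 CPM, nearly all of it MSLN, at 166, 122 and 427 CPM. Airway secretory and basal markers were above all other cells in replicate 3 only, where the secretory sum was 2059 CPM against 300.4 CPM and the basal sum 338 CPM against 294 CPM. Without the 6 deep members these sums of replicate 3 were 119.7 and 33.2 CPM, while the alveolar type 1 sums were 398, 333 and 555 CPM and the mesothelial sums 214, 128 and 259 CPM. Endothelial markers, with CLDN5 and TIE1 at 0, summed to 9.64, 16.6 and 34.5 CPM against 9.36, 24.4 and 10.2 CPM. A Scrublet doublet score of at least 0.2 was found in 7, 0 and 2 members.

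Ciliated cells were rare and unevenly recovered. They made up 0.780% of passing cells in replicate 1 (95% exact binomial interval 0.600% to 0.997%), 0.233% in replicate 2 (0.144% to 0.356%) and 0.667% in replicate 3 (0.4997% to 0.871%), with a mean of 0.560% ± 0.289 (SD, n = 3). The interval of replicate 2 lay below both others. The intervals cover counting error only, and the part of dissection and dissociation in the share was not tested. Median depth was 5525, 5943 and 5173 UMIs in members and 5028, 5193.5 and 8163.5 UMIs in all other cells, without a common order. More genes were seen per member (medians of 2207, 2343 and 2109) than per other cell (1483, 1729.5 and 1714). Mitochondrial transcripts took 9.38%, 7.49% and 9.56% of UMIs in the median member, 8.35%, 7.08% and 8.43% in other epithelial cells, 6.33%, 6.20% and 7.29% in all other cells and 5.70%, 5.14% and 6.19% in alveolar type 2 cells. The members were higher than all other cells in 3 of 3 animals, by a mean of 2.20 percentage points (SD 0.884), and higher than other epithelial cells in 3 of 3, by 0.857 points (SD 0.387). The exact two-sided sign-flip test gave p = 0.25 for each, which is the smallest value 3 animals allow. The 13 mitochondrial genes code for respiratory chain subunits, but their share is also a usual measure of cell damage, and these were not told apart here.

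**Figure D2:**
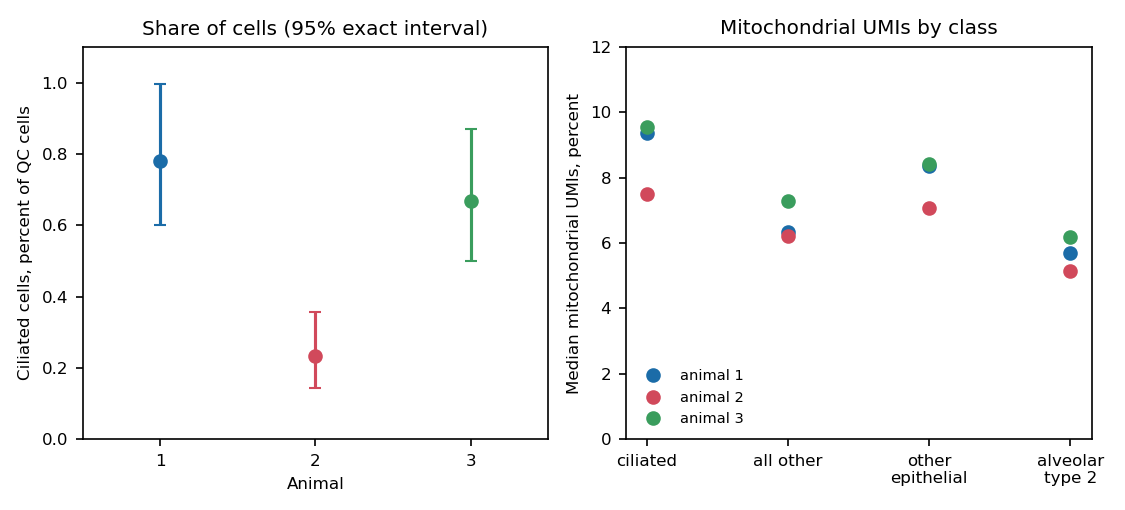
Left, share of passing cells that met the ciliated rule in each animal, in percent, with the 95% exact binomial interval as error bars. Right, median percent of UMIs in mitochondrial genes per animal for each cell class; each animal is 1 point, and the members lie above the other classes in all 3 animals.

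To describe the other genes of these cells, UMIs were summed per animal and class, and the sums were compared with the animal as a block by the quasi-likelihood test of edgeR at a Benjamini-Hochberg adjusted p of 0.05 (log2 fold changes are given ± SE, positive where ciliated cells were higher). CPM values carry no TMM factor, so a fold change can differ from the ratio of the CPM printed beside it. The 5 rule genes stayed out of the tests. Cells chosen by genes of one programme are expected to differ in the rest of that programme, so these p-values rank genes and are not independent evidence that the cells are ciliated. Against all other passing cells 14170 genes were tested, of which 1995 (14.1%) were higher and 2464 (17.4%) lower. With library totals in place of TMM scaling the counts were 2814 (19.9%) and 1138 (8.03%), and the median log2 fold change of all genes moved from -0.24 to 0.22, so small differences take their sign from the scaling. Without the 6 deep members 2116 genes (15.0%) were higher and 2852 (20.2%) lower, without the 33 members that held a PTPRC UMI 1732 (12.3%) and 2418 (17.2%), without the animal block 1753 (12.4%) and 1588 (11.2%), and by DESeq2 1734 (12.2%) and 1410 (9.95%). The 9 lists of ciliary structure run from multiciliation regulators and centrioles to intraflagellar transport and the transition zone, without the tubulin list. Of their 163 genes named in the file, 151 were tested and 128 were higher. Under those 4 alternatives the count was 131, 125, 124 and 126.

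The transcription factors of the multiciliation programme that were measured besides FOXJ1 were mostly higher in ciliated cells. Of 13 list members 9 were named in the file and 6 tested, with 4 higher, 1 lower and a median log2 fold change of 2.42 (all genes -0.24). MYB, which acts early in multiciliated differentiation, was at 102, 244 and 86.2 CPM in ciliated cells and 6.9, 13.4 and 3.55 CPM in all other cells, a log2 fold change of 3.78 ± 0.24 (SE; edgeR adjusted p = 2.7e-34). The lowest ciliated sum was above the highest of the other cells, and MYB was seen in 77 of 137 members. TP73, a transcription factor needed for multiciliogenesis, was at 55.9, 44.4 and 58.2 CPM against 3.39, 3.26 and 4.75 CPM (3.35 ± 0.35 SE, edgeR adjusted p = 9.6e-17). RFX2, which drives ciliary genes together with FOXJ1, was at 80.9, 94.3 and 49.6 CPM against 5.59, 6.28 and 4.9 CPM (3.25 ± 0.30 SE, edgeR adjusted p = 1.2e-20). For all 3 factors the animals of the 2 classes did not overlap. The share of all tested genes without such overlap was not counted, here or for the genes below. Without the 6 deep members 3 members of the list were higher. E2F4, a partner of multicilin, was lower, at 15.4, 33.3 and 12.9 CPM against 29.1, 38 and 19.9 CPM (-1.07 ± 0.35 SE, edgeR adjusted p = 0.01). It was not called by DESeq2, with library totals, with at least 4 rule genes, without replicate 1 (edgeR adjusted p = 0.20) or without replicate 3 (0.095).

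MCIDAS, CDC20B and CCNO, genes of the early stage of centriole amplification, were barely detected. CCDC78, of the same list, is a rule gene and was not tested. It was at 291, 394 and 415 CPM in members with 3, 4 and 5 rule genes. MCIDAS, which encodes multicilin, had 1 UMI over all members, CDC20B 1 and CCNO, a cyclin of the same locus, 6, and 7 members held any of them. Of 17 tested genes of the centriole list 6 were higher and 2 lower, with a median log2 fold change of 0.06. CETN2, a centrin of centrioles and basal bodies, was at 1530.3, 1359 and 1485 CPM against 89.8, 87.1 and 82.1 CPM (3.64 ± 0.20 SE, edgeR adjusted p = 1.1e-42). It was seen in 134 of 137 members. CCP110, a cap protein of centrioles, was at 279, 233 and 144 CPM against 12.1, 13.5 and 8.31 CPM (3.82 ± 0.23 SE, edgeR adjusted p = 4.3e-38), and the distal appendage gene CEP164 was higher by 2.21 ± 0.26 on the log2 scale. PLK4, the kinase that starts centriole duplication, was lower, at 0, 5.55 and 2.16 CPM against 8.5, 10.1 and 6.32 CPM (-2.63 ± 0.85 SE, edgeR adjusted p = 0.0099). PLK1, a mitotic kinase, was lower too (-1.23 ± 0.38 SE, edgeR adjusted p = 0.0059). Neither kinase was called by DESeq2 or with library totals, where the list had 0 lower genes, and without replicate 1 the edgeR adjusted p was 0.29 for PLK4 and 0.14 for PLK1. PLK4 was not called without replicate 3 (0.054), at a mitochondrial limit of 10% or with at least 4 rule genes either, nor PLK1 without the members that held a PTPRC UMI.

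The motor proteins of the axoneme gave a uniform picture. All 8 tested genes of the outer dynein arms and their docking complex were higher, with a median log2 fold change of 6.29, and so were all 14 tested genes of the inner arms and nexin links, with a median of 6.90. DNAH11, an outer arm heavy chain, was at 310.3, 338 and 216 CPM in ciliated cells and 0.629, 0.378 and 0.48 CPM in all other cells (8.71 ± 0.28 SE, edgeR adjusted p = 5.6e-75). CLXN, a calcium sensor bound to the outer arms, was at 241, 289 and 157 CPM, with a log2 fold change of 8.40 ± 0.28. In both genes the animals of the ciliated and the other class did not overlap. DNALI1, an inner arm light chain, was at 748, 893 and 673 CPM, but its level of 32.1, 24.1 and 17.4 CPM in all other cells left a smaller log2 fold change of 4.57 ± 0.21 (SE; edgeR adjusted p = 1.3e-50). CCDC39 and CCDC40, the paired ruler proteins that set the spacing of arms and spokes, were at 237, 266 and 144 CPM and at 67.5, 99.9 and 79.8 CPM, with log2 fold changes of 7.46 ± 0.27 and 7.41 ± 0.40. The nexin link gene DRC7 was higher by 8.21 ± 0.29 and IQCD, of the same complex, by 7.11 ± 0.25.

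Dynein arms are put together in the cytoplasm by assembly factors, and 10 of 11 tested ones were higher, with a median of 4.42. ZMYND10, a co-chaperone of this step, was at 139, 155 and 127 CPM against 0.272, 0.293 and 0.209 CPM (8.64 ± 0.31 SE, edgeR adjusted p = 8.6e-68). CFAP298, another factor of this step, was at 584, 583 and 469.9 CPM, but was also present at 17.8, 18.8 and 14 CPM elsewhere (4.58 ± 0.22 SE, edgeR adjusted p = 1.7e-50). DNAAF6 had the largest log2 fold change of the list, 9.75 ± 0.44. The gene that did not pass was DNAAF4, at 42.4, 44.4 and 41 CPM against 19.6, 23.8 and 17.6 CPM (0.64 ± 0.29 SE, edgeR adjusted p = 0.079); it passed without the 6 deep members, with library totals and with depth-matched comparison cells.

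Radial spoke and central pair genes, which relay the signal between the pair and the arms, were higher in all 23 tested cases besides the 3 rule genes of this list, with a median of 6.80. HYDIN, a large central pair protein, was at 109.9, 94.3 and 88.4 CPM against 0.214, 0.061 and 0.0985 CPM (9.15 ± 0.39 SE, edgeR adjusted p = 9.1e-57). RSPH14, a spoke protein, was at 127, 149.8 and 142 CPM with a log2 fold change of 9.08 ± 0.32, and SPEF2, a central pair protein, at 162, 139 and 99.2 CPM with 7.94 ± 0.30. The microtubule inner proteins, which line the inside of the doublets, formed the list with the highest median, 7.28, and all 22 tested were higher. CFAP126 was at 636, 788 and 593 CPM against 1.54, 1.45 and 1.16 CPM (8.48 ± 0.26 SE, edgeR adjusted p = 2.2e-78). EFCAB10 was at 942, 1148 and 645 CPM against 2.07, 1.56 and 2 CPM (8.45 ± 0.26 SE, edgeR adjusted p = 1.6e-77). Each was seen in at least 129 of 137 members.

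Intraflagellar transport and Bardet-Biedl genes serve all cilia, including the primary cilium of other cells, and their differences were smaller: 25 of 30 were higher and 0 lower, with a median of 2.44. IFT88, a core train protein, was at 109.9, 83.2 and 84.1 CPM against 8.15, 10.2 and 8.6 CPM (2.95 ± 0.26 SE, edgeR adjusted p = 7.6e-22), and IFT43 of the retrograde train was at 303, 222 and 224 CPM against 41.2, 31.3 and 27.7 CPM (2.46 ± 0.21). Within this list DYNLRB2, a light chain of the retrograde motor, stood far out, at 626, 688 and 494 CPM against 2.34, 2.02 and 1.49 CPM (7.84 ± 0.25 SE, edgeR adjusted p = 5.8e-75). The other 5 did not pass: BBS1, BBS2, TTC21B, DYNLT5 and the accessory kinesin KIF17, whose 224, 222 and 213 CPM overlapped the 214, 194 and 170.5 CPM of all other cells. BBS1, at 2.13 (edgeR adjusted p = 0.058), was called without the 6 deep members (2.51, edgeR adjusted p = 0.020), with at least 4 rule genes (0.024), with library totals (0.022) and without the members that held a PTPRC UMI (0.037). BBS2, at 0.95 (edgeR adjusted p = 0.19), was called with library totals (0.049). Transition zone and basal body genes, which gate the base of the cilium, were higher in 16 of 20 cases with a median of 1.78. CEP290 was at 185, 189 and 147 CPM against 40.9, 40.9 and 30.4 CPM (1.77 ± 0.22 SE, edgeR adjusted p = 4.8e-13), and LCA5, of the ciliary base, reached 5.75 ± 0.30. TMEM231, IQCB1, INVS and OFD1 did not pass.

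The tubulin list moved in both directions, with 7 of 16 higher, 3 lower and a median of 0.84. TUBB4B, the beta tubulin of axonemes, was at 2484, 2425 and 3451 CPM against 239, 233 and 252 CPM (3.08 ± 0.19 SE, edgeR adjusted p = 7.8e-37). TPPP3, a tubulin polymerization protein, was at 1854, 1969.6 and 1989.6 CPM against 9.18, 9.29 and 8.43 CPM (7.32 ± 0.23 SE, edgeR adjusted p = 1.5e-75). Both were present in nearly every member, TPPP3 in 133 and TUBB4B in 135 of 137. After every cell was thinned to 1000 UMIs, TPPP3 was seen in 82.5% of members, 5.44% of other epithelial cells and 0.764% of leukocyte-type cells (at least 2 PTPRC UMIs and no EPCAM UMI; 13883 cells). For TUBB4B the shares were 86.9%, 32.7% and 18.5%. Unthinned, at median depths of 5443, 6492 and 6634 UMIs, TPPP3 was seen in 97.1%, 10.2% and 3.89%. TUBA1A was higher as well, at 703, 594 and 655 CPM against 163, 163 and 126 CPM (1.68 ± 0.19 SE, edgeR adjusted p = 1.1e-14). TUBA1B, TUBA1C and TUBB2B were lower. TUBA1B, the alpha tubulin of general use, was at 802, 915 and 791 CPM against 1046, 1093 and 895 CPM (-0.71 ± 0.18 SE, edgeR adjusted p = 0.00057), and with library totals only TUBA1C of the 3 was called. Without replicate 1 the edgeR adjusted p was 0.071 for TUBA1B and 0.32 for TUBB2B, and without the block it was 0.13 for TUBA1C and 0.27 for TUBB2B. TUBB2B was not called by DESeq2, with at least 4 rule genes, at a mitochondrial limit of 10% or without the members that held a PTPRC UMI either, and neither TUBB2B nor TUBA1B with depth-matched comparison cells.

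**Figure D3:**
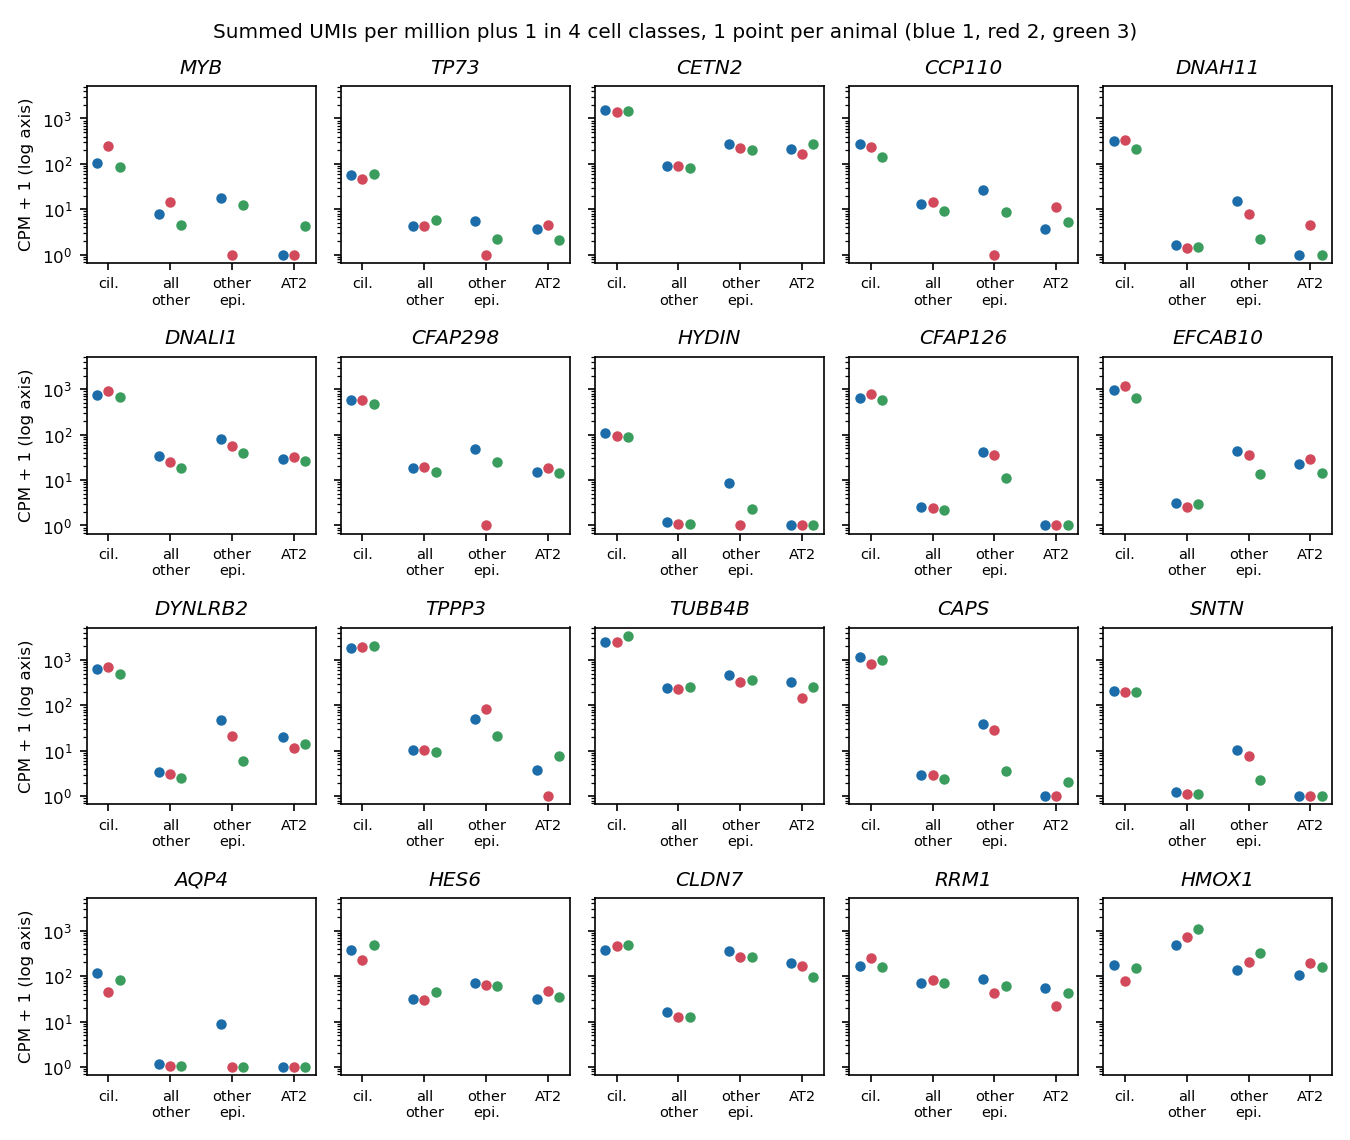
Levels of 20 genes in CPM plus 1 (log scale) in ciliated cells, all other cells, other epithelial cells and alveolar type 2 cells, with 1 point per animal and class. For CFAP126, EFCAB10, CAPS and SNTN the 3 ciliated points lie at least 2 orders of magnitude above all other cells, whereas HMOX1 is lower and RRM1 only modestly higher.

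Genes of the ciliated cell body and membrane were higher in 32 of 34 tested cases, with a median of 6.25. CAPS, named above, was at 1185, 821 and 1004 CPM against 1.93, 2 and 1.39 CPM (8.71 ± 0.26 SE, edgeR adjusted p = 1.5e-80). TSPAN1, a tetraspanin, was at 1097, 1332 and 677 CPM against 2.27, 1.06 and 1.47 CPM (8.89 ± 0.27 SE, edgeR adjusted p = 8.4e-79), with replicate 3 the lowest. SNTN, the protein of the narrow ciliary tip, was at 202, 194 and 196 CPM, nearly the same in the 3 animals, against 0.243, 0.11 and 0.0985 CPM (9.93 ± 0.31 SE, edgeR adjusted p = 3e-76). The lipid-transfer family gene SEC14L3 was at 639.9, 383 and 517 CPM with a log2 fold change of 9.83 ± 0.28. Detoxifying enzymes of this list were also found in other cells. PRDX5, a peroxiredoxin, was at 1478, 1481 and 1681 CPM against 189.7, 160.2 and 213 CPM (2.61 ± 0.19 SE, edgeR adjusted p = 4.8e-29), and ALDH1A1, a retinaldehyde dehydrogenase, at 634, 311 and 302 CPM against 7.79, 1.99 and 5.57 CPM (5.97 ± 0.24 SE, edgeR adjusted p = 4.4e-59). ALDH1A1 was at 452, 151 and 74.7 CPM in other epithelial cells (1.09 ± 0.30 SE, edgeR adjusted p = 0.056) and 381, 115 and 285 CPM in alveolar type 2 cells (0.20 ± 0.29 SE, edgeR adjusted p = 0.65), so the difference from those cells did not pass. It did pass against both without the 6 deep members, at 1.46 (edgeR adjusted p = 0.024) and 0.60 (0.036), and against other epithelial cells without replicate 1 (0.045) or 2 (0.042). MGST1, a microsomal glutathione transferase, was alike in that respect, with log2 fold changes of 1.41 against all others and 0.02 (edgeR adjusted p = 0.95) against alveolar type 2 cells.

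Notch pathway genes differed little as a list, with 2 of 14 higher, 2 lower and a median of -0.14 (-0.04 with genes unseen in 1 class set at their bound). HES6, a Notch antagonist of the HES family, was at 366, 227 and 479 CPM against 30.3, 29.1 and 44.9 CPM (2.90 ± 0.21 SE, edgeR adjusted p = 4e-29), and the ligand JAG2 at 38.5, 33.3 and 30.2 CPM against 2.52, 2.32 and 2.06 CPM (3.43 ± 0.45 SE, edgeR adjusted p = 1.3e-11). In both the animals did not overlap between classes. The Notch target HES1 was at 34.7, 44.4 and 41 CPM with a log2 fold change of -0.03 (edgeR adjusted p = 0.95). MFNG, a glycosyltransferase that modifies Notch, was lower, at 13.5, 5.55 and 30.2 CPM against 82.3, 77.2 and 97.6 CPM (-2.76 ± 0.31 SE, edgeR adjusted p = 4.1e-15). NOTCH1 and NOTCH3 had 0 UMIs in members, which allows up to 2.58 CPM (3 counts over all members).

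Of the planar polarity and apical junction genes 10 of 17 were higher and 0 lower (median 1.79), and the calls were led by junctions. CLDN7, a claudin, was at 382, 449 and 485 CPM against 15.1, 11.7 and 11.4 CPM (4.67 ± 0.22 SE, edgeR adjusted p = 4.6e-50), CLDN3 at 69.4, 72.1 and 62.5 CPM (5.81 ± 0.40) and the tight junction scaffold TJP3 at 71.3, 122 and 92.7 CPM (4.98 ± 0.30). The polarity genes FZD6 (2.50, edgeR adjusted p = 0.0074), VANGL1 (1.43, edgeR adjusted p = 0.046) and PARD3 (1.00, edgeR adjusted p = 0.019) were also among the higher genes. Without the 6 deep members they were at 2.19 (edgeR adjusted p = 0.059), 1.43 (edgeR adjusted p = 0.068) and 0.67 (edgeR adjusted p = 0.21), so that the calls were lost while the fold of VANGL1 did not move. Their edgeR adjusted p was 0.32, 0.19 and 0.21 without replicate 1 and 0.14, 0.73 and 0.10 without replicate 3, and none of the 3 was called with at least 4 rule genes, at a mitochondrial limit of 10% or without the members that held a PTPRC UMI. VANGL2, CELSR3 and PRICKLE2 had 0 UMIs. The counts above are against all other cells. Against other epithelial cells 2 of 6 tested genes of this list were higher and 0 lower (median 0.71). Against alveolar type 2 cells 3 of 8 were higher and 0 lower (median 0.49).

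Among genes of ion and fluid transport 6 of 12 were higher and 1 lower (median 2.10). AQP4, a water channel, was at 114, 44.4 and 79.8 CPM against 0.143, 0.0366 and 0.037 CPM (9.64 ± 0.46 SE, edgeR adjusted p = 5.6e-50), and was seen in 59 of 137 members. It had 7.74, 0 and 0 CPM in other epithelial cells (4.66 ± 0.64 SE, edgeR adjusted p = 0.0029) and 0 UMIs in alveolar type 2 cells, at least 46.7-fold lower. The related channel AQP5 gave another order, at 214, 266 and 409.6 CPM in ciliated cells, 23.7, 25.6 and 32.2 CPM in all other cells, 1016, 3736 and 672 CPM in other epithelial cells and 1489.6, 1331 and 1369.6 CPM in alveolar type 2 cells. It was thus higher than in all other cells (2.97 ± 0.21 SE, edgeR adjusted p = 1.5e-29) and lower than in each epithelial class (-2.29 ± 0.49 SE, edgeR adjusted p = 0.02; -2.75 ± 0.22 SE, edgeR adjusted p = 5.6e-05), although the former difference had an edgeR adjusted p of 0.10 without replicate 1 and 0.11 at a mitochondrial limit of 10%. SCNN1B, a subunit of the sodium channel, was at 17.3, 5.55 and 19.4 CPM against 111, 385 and 205 CPM in other epithelial cells (-3.64 ± 0.43 SE, edgeR adjusted p = 0.0015). CA2, a carbonic anhydrase, was at 1.93, 5.55 and 2.16 CPM in ciliated cells and 411, 467 and 221 CPM in alveolar type 2 cells (-7.33 ± 0.32 SE, edgeR adjusted p = 6e-06), and it was also lower than in all other cells (-3.09 ± 0.64) and in other epithelial cells (-5.15 ± 0.45). FOXI1 and ASCL3, the markers of ionocytes, had 0 UMIs in members.

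**Figure D4:**
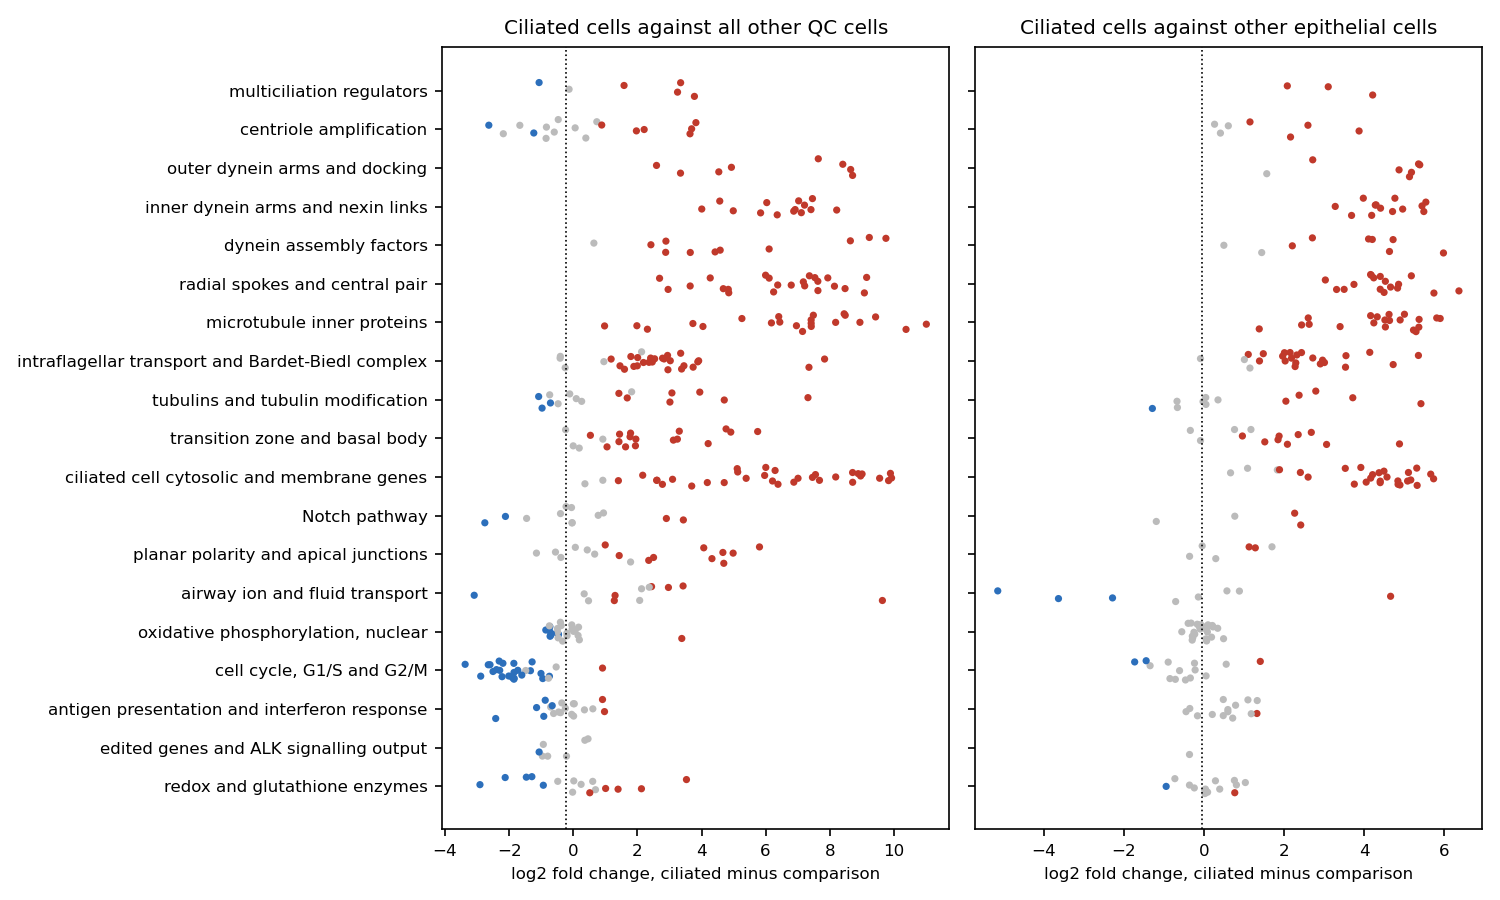
Log2 fold change of each tested gene in 19 gene lists, ciliated minus all other cells (left) and ciliated minus other epithelial cells (right). Red marks genes called higher, blue lower and grey not called at adjusted p below 0.05, and the dotted line is the median of all tested genes; at left the medians of the dynein arm, spoke and inner protein lists lie between 6.29 and 7.28, and most cell cycle genes lie to the left of the line. Genes unseen in 1 class are not drawn.

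For nuclear genes of oxidative phosphorylation the direction of the calls depended on the scaling, which also moved the calls over all genes. Of 25 tested, 1 was higher and 8 lower (median -0.40, all genes -0.24). With library totals 3 were higher and 0 lower, and without the animal block 2 were lower. Over all genes tested 14.1% were higher and 17.4% lower. With library totals these shares were 19.9% and 8.03%, and without the block 12.4% and 11.2%. ATP5F1B, an ATP synthase subunit, was at 464, 338 and 524 CPM against 527, 639 and 603 CPM (-0.86 ± 0.19 SE, edgeR adjusted p = 6.2e-05; 0.18 with library totals). The gene that was higher was PPARGC1A, the coactivator of mitochondrial biogenesis, at 5.78, 5.55 and 12.9 CPM against 0.457, 0.719 and 0.641 CPM (3.38 ± 0.83 SE, edgeR adjusted p = 0.0004); without replicate 3 its adjusted p was 0.17.

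Cell cycle genes were lower in 23 of 28 cases and higher in 1, with a median of -1.85; 16 were lower with library totals and 17 with DESeq2. UBE2C, a mitotic ubiquitin ligase component, was at 21.2, 44.4 and 28 CPM against 144, 116 and 125 CPM (-2.65 ± 0.28 SE, edgeR adjusted p = 7.6e-17), and MCM3, of the replicative helicase, at 15.4, 16.6 and 17.2 CPM against 45.8, 76.2 and 53.8 CPM (-2.19 ± 0.32 SE, edgeR adjusted p = 1.2e-09). TOP2A was at 5.78, 99.9 and 79.8 CPM against 145, 264 and 138 CPM (-2.22 ± 0.26 SE, edgeR adjusted p = 6e-14) and was seen in 11 of 137 members. The exception was RRM1, the large subunit of ribonucleotide reductase, at 164, 255 and 159.5 CPM against 69.4, 79.5 and 70.5 CPM (0.91 ± 0.21 SE, edgeR adjusted p = 0.00014). Its lowest ciliated sum was above the highest of the other classes, and it was also higher than in other epithelial cells (1.41 ± 0.34 SE, edgeR adjusted p = 0.033) and alveolar type 2 cells (1.66 ± 0.36 SE, edgeR adjusted p = 0.0089). CCND1, cyclin D1, was lower against other epithelial (-1.73 ± 0.40 SE, edgeR adjusted p = 0.027) and alveolar type 2 cells (-1.81 ± 0.39 SE, edgeR adjusted p = 0.0086). Without replicate 1 the differences of RRM1 and CCND1 from other epithelial cells had edgeR adjusted p of 0.059 and 0.14, and that of CCND1 from alveolar type 2 cells 0.050. The difference of RRM1 from other epithelial cells was not called with depth-matched comparison cells (0.083) or at a mitochondrial limit of 10% (0.13) either. Leukocyte-type cells were 13883 of the 24907 cells in the comparison with all others, and their part in the cell cycle result was not tested. Against other epithelial cells 2 of 14 cell cycle genes were lower and 1 higher.

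Antigen presentation and interferon genes gave 2 higher and 5 lower of 19 (median -0.36), with 0 calls when the block was left out and 3 higher and 1 lower with library totals. CD74, the invariant chain of class II molecules, was at 7312, 9654 and 6113 CPM in ciliated cells and 5424, 8349.5 and 3759 CPM in all other cells (0.01 ± 0.16 SE, edgeR adjusted p = 0.97). It was higher than in other epithelial cells, at 2678, 7122 and 1277 CPM (1.32 ± 0.28 SE, edgeR adjusted p = 0.018), with an adjusted p of 0.27 without the block and 0.087 without replicate 1. Without the 6 deep members CD74 was also higher than in all other cells, by 0.29 (edgeR adjusted p = 0.046). Against alveolar type 2 cells 0 of 15 tested genes of this list, with or without CD74, were called higher and 2 lower. IFIT2, an interferon-induced gene, was at 333, 255 and 21.6 CPM against 126, 88.9 and 9.83 CPM (0.97 ± 0.22 SE, edgeR adjusted p = 0.00015; 0.42 without the block), and ISG15 at 962, 738 and 108 CPM against 845, 311 and 121 CPM. Replicate 3 was the lowest in both classes for both genes.

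The edited genes were near the limit of detection. ALK was seen in 4 of 137 members (2.92%; 95% exact binomial interval 0.801% to 7.31%), with 1 UMI each, at 1.93, 5.55 and 4.31 CPM against 3.29, 11.1 and 3.19 CPM (-0.80 ± 0.79 SE, edgeR adjusted p = 0.48). Leukocyte-type cells showed ALK in 2.03% and other epithelial cells in 11.6%, both at a higher median depth than the members. The interval pools the cells of 3 animals and covers counting error only. Whether the share in members differed from background or from these classes was not tested. RB1 was seen in 12 members, at 11.6, 5.55 and 10.8 CPM against 15.6, 19.1 and 10.7 CPM (-0.93 ± 0.45 SE, edgeR adjusted p = 0.1). Of 8 tested genes of the list 1 (STAT3) was lower and 0 higher, and STAT3 did not pass by DESeq2, with library totals, with at least 4 rule genes, with depth-matched comparison cells, without the 6 deep members, without replicate 1 (edgeR adjusted p = 0.26) or without replicate 3 (0.14). Whether ciliated cells carried the edits was not tested.

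Redox enzymes went both ways, with 5 of 16 higher and 5 lower (8 and 3 with library totals). GPX2, the epithelial glutathione peroxidase, was at 559, 632 and 1112 CPM against 46.6, 43.6 and 50.9 CPM (3.53 ± 0.21 SE, edgeR adjusted p = 3.9e-39), and SOD1, superoxide dismutase, at 1565, 832 and 1244 CPM against 350.2, 318 and 325 CPM (1.40 ± 0.18 SE, edgeR adjusted p = 1.9e-11). HMOX1, the haem oxygenase that macrophages express strongly, was lower, at 173, 77.7 and 147 CPM against 487, 725 and 1113 CPM (-2.91 ± 0.22 SE, edgeR adjusted p = 1.1e-27); macrophage markers were lower in the same comparison, and their part was not tested. Against other epithelial cells its log2 fold change was -0.73 (edgeR adjusted p = 0.23). In that comparison 1 of 14 tested redox genes was higher and 1 lower, and against alveolar type 2 cells 2 of 14 were higher and 2 lower.

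Among the 12 genes with the largest positive log2 fold change against all other cells were the list members SNTN, SEC14L3 and DNAAF6 given above, and also MDH1B (11.01 ± 0.67), CIBAR2 (10.68 ± 0.42), FAM81B (10.37 ± 0.32), FAM216B (10.07 ± 0.31) and CFAP65 (10.01 ± 0.60). HPX encodes hemopexin, the haem-binding protein of plasma, and belonged to the same 12 genes. It was at 838, 1509 and 1248 CPM in ciliated cells and 1.2, 0.719 and 0.567 CPM in all other cells (10.07 ± 0.28 SE, edgeR adjusted p = 8.2e-84). HPX was seen in 120 of 137 members, and after thinning in 59.9% of members, 3.4% of other epithelial cells and 0.0720% of leukocyte-type cells, at the same depths as above. Only 4 of its 1286 UMIs lay in the 6 deep members. On the lower side the 10 genes included PRG4 (-5.10), the calcification inhibitor MGP (-4.19), osteopontin SPP1, CX3CR1 (-3.71) and CCL2 (-3.65), all known from stromal or myeloid cells. MGP was also lower than in other epithelial cells, at 32.8, 5.55 and 17.2 CPM against 365, 117 and 144 CPM (-3.505 ± 0.29 SE, edgeR adjusted p = 0.00061). SPP1 was at 5.78, 533 and 0 CPM against 45.7, 6239.6 and 56.4 CPM, high in both classes of replicate 2, and was not called without the block (edgeR adjusted p = 0.18).

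The closest cells of the same animals were 147 other epithelial cells (54, 26 and 67) and 192 alveolar type 2 cells (37, 38 and 117), the latter chosen by SFTPC. The former had SFTPC below the limit, an EPCAM UMI and no KRT14 UMI. They also held at least 2 of CDH1, KRT8, KRT18, KRT19, CLDN4, CLDN7 and SCGB3A2, as far as named in the file. The first class was mixed: the alveolar type 1 gene AGER, which did not choose it, was at 1164, 8866 and 462 CPM in replicates 1, 2 and 3. The secretory gene SCGB3A2 was at 22796, 1552 and 16781 CPM there, but it was 1 of the genes that chose the class. The SCGB3A2 of the members, at 38.5, 11.1 and 2048 CPM, did not pass against alveolar type 2 cells (-4.02 ± 1.70 SE, edgeR adjusted p = 0.12), but was lower without the 6 deep members (-6.48, edgeR adjusted p = 8.5e-05), with depth-matched comparison cells (-3.67, 0.028), without a filter on low counts, without replicate 1 (-1.13, 0.020) and without replicate 3 (-8.07, 0.0013). The 3 comparisons share the ciliated sums, so their results are not independent of each other. Against other epithelial cells 5890 genes were tested, with 645 (11.0%) higher and 193 (3.28%) lower. Against alveolar type 2 cells 4877 were tested, with 746 (15.3%) higher and 555 (11.4%) lower, or 1459 (29.9%) and 273 (5.6%) with library totals, where the median of all genes moved from 0.01 to 0.50. Of the genes of ciliary structure 102 of 115 tested were higher than in other epithelial cells and 99 of 108 higher than in alveolar type 2 cells.

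The axonemal lists kept their direction within the epithelium. All 13 inner arm genes, all 18 spoke and central pair genes and all 21 microtubule inner protein genes tested were higher than in other epithelial cells, with medians of 4.41, 4.45 and 4.63 (all genes -0.05). Against alveolar type 2 cells the counts were 13 of 13, 16 of 16 and 19 of 20, with medians of 5.48, 5.02 and 4.93 where genes unseen in 1 class were set at their bound. MYB was at 17, 0 and 11.4 CPM in other epithelial cells (3.11 ± 0.55 SE, edgeR adjusted p = 0.0091) and 0, 0 and 3.27 CPM in alveolar type 2 cells (5.35 ± 0.60). TP73 differed by 4.22 ± 0.55 and 4.13 ± 0.52, and RFX2 by 2.08 ± 0.33 and 2.58 ± 0.44, the former with an edgeR adjusted p of 0.055 without replicate 1. All 3 tested transcription factors of the programme were thus higher than in both epithelial classes. Of the 9 named in the file, FOXJ1 is a rule gene and the others did not pass the count filter. That filter keeps genes with enough counts in 1 class alone and drops those low in both. The shares higher among tested genes are therefore not shares of all genes of a list. CETN2 was at 277, 219.8 and 199 CPM in other epithelial cells (2.60 ± 0.19 SE, edgeR adjusted p = 0.00051), TPPP3 at 49.5, 82.4 and 20.2 CPM (5.42 ± 0.37 SE, edgeR adjusted p = 0.00051) and CAPS at 38.7, 27.5 and 2.53 CPM (5.74 ± 0.59 SE, edgeR adjusted p = 0.00091). TUBB4B, which other epithelial cells also held at 463, 323 and 363 CPM, differed by 2.79 ± 0.22, and HES6 by 2.42 ± 0.25. Intraflagellar transport was higher in 21 of 24 cases (median 2.29) and the transition zone in 9 of 13 (median 1.85).

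The genes of largest difference from other epithelial cells included several with 0 UMIs in that class: ARMC3, a central pair protein (59.7, 139 and 51.7 CPM in ciliated cells, at least 36.3-fold higher), CFAP90 (at least 29-fold) and BBOX1, an enzyme of carnitine synthesis (54, 61 and 45.3 CPM, at least 27.2-fold). SYT5, a synaptotagmin, was at 158, 183 and 177 CPM against 3.09, 0 and 1.27 CPM (6.19 ± 0.47 SE, edgeR adjusted p = 0.00051). Those lower in ciliated cells were CRYM, a thyroid hormone-binding protein, at 54, 0 and 15.1 CPM against 1378, 41.2 and 1144 CPM (-5.45 ± 0.42 SE, edgeR adjusted p = 0.00051), the collagen COL4A4 (-5.05), the phosphate transporter SLC34A2 (-4.18) and ANKRD37, a hypoxia-responsive gene, at 42.4, 55.5 and 34.5 CPM against 357, 852 and 259 CPM (-3.33 ± 0.25 SE, edgeR adjusted p = 0.00051). Against alveolar type 2 cells CFAP126 had 0 UMIs on the other side (at least 335-fold higher), as had DYNLT4 (at least 265-fold) and LRRIQ1 (at least 151-fold). The surfactant genes went the other way, with SFTPB at 7.71, 0 and 2.16 CPM against 212, 237 and 194 CPM (-6.03 ± 0.41 SE, edgeR adjusted p = 2.6e-05) and the protease NAPSA at 75.2, 178 and 30.2 CPM against 2723, 3022 and 2502 CPM (-5.61 ± 0.46 SE, edgeR adjusted p = 5.7e-05). SLC34A2, which supplies phosphate to surfactant-making cells, was at 3.85, 0 and 2.16 CPM against 458, 746 and 493 CPM (-7.98 ± 0.36 SE, edgeR adjusted p = 6.3e-06). The alveolar type 2 cells were chosen by SFTPC, so differences in other genes of that cell type are expected from the selection. Their p-values are no independent evidence.

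**Figure D5:**
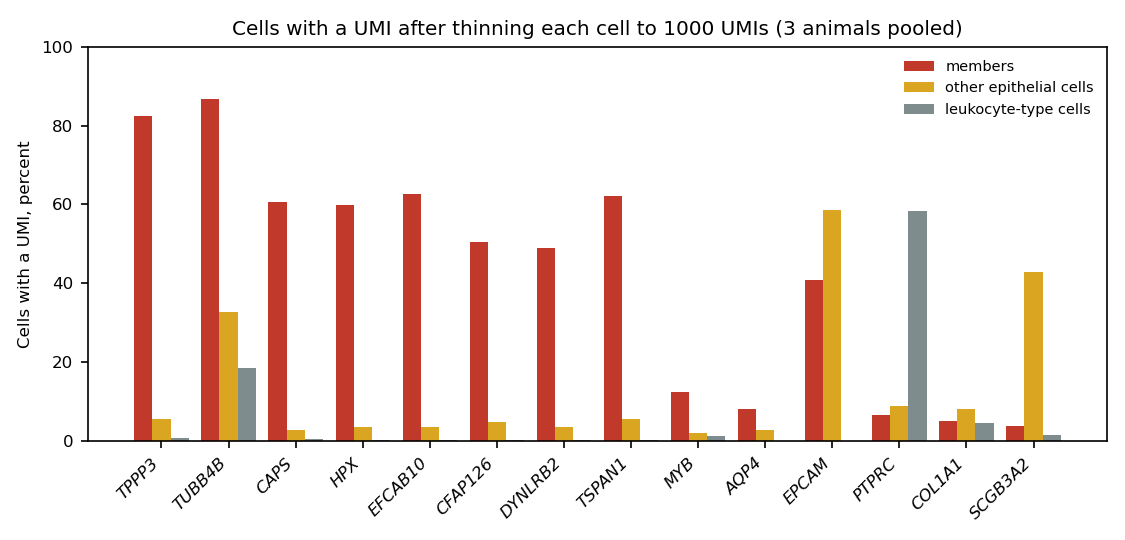
Percent of cells with at least 1 UMI of 14 genes after each cell was thinned to 1000 UMIs, for ciliated cells, other epithelial cells and leukocyte-type cells. TPPP3 and TUBB4B are seen in 82.5% and 86.9% of ciliated cells and CAPS in 60.6%, while PTPRC is seen in 6.57%.

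Members were also described by how many rule genes they held. Summed over the animals and without the 6 deep cells, which had been set apart by their low content of rule genes, members with 3, 4 and 5 rule genes (60, 53 and 18 cells) held 3161, 2990 and 3007 CPM of inner arm and nexin link genes, 5295, 5313 and 5255 CPM of microtubule inner protein genes, and 4145, 4443 and 4292 CPM of transport genes. With the deep cells the inner arm sum of members with 3 rule genes was 1911 CPM and that of members with 4 was 2654 CPM. In replicate 2 alone, with 9, 9 and 3 such cells, the inner arm sums were 3385, 3451 and 1960 CPM (3, 4 and 5 rule genes) and the transport sums 3751, 4542 and 2392 CPM, so the like sums over all animals did not hold there. Of the 39294 UMIs of the 3 cells with 5 rule genes, 30616 lay in the IGKC-rich member described above. The part of that cell in the low sums was not tested. EPCAM was seen in 78.1%, 92.7% and 100% of members with 3, 4 and 5 rule genes, whose median depths over all animals were 4272.5, 6270 and 6338 UMIs. Members with 3 rule genes were thus the shallowest. The ciliated levels of replicate 2, with 21 cells, were the highest for MYB and DNAI1 (32.8, 128 and 25.9 CPM), and those of replicate 3 the highest for TUBB4B and GPX2. With 1 sum per animal these differences between animals were not tested.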

How the data were processed

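Single-cell RNA of 3 naked mole-rats was analysed from the deposited matrices, which hold the authors' raw UMI counts per gene and barcode, not normalized, per the file headers; libraries held 9500, 10000 and 10000 barcodes with 76093932, 86575320 and 91949365 UMIs. The file headers name Cell Ranger 7.1.0 and the submitters' processing notes 8.0.0. The genome build is not given in the sources used here. Of 23189 features 11611 had no symbol; these were tested and not named. Pairs of libraries shared 24, 21 and 31 barcodes, 0 among members.

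UMIs were summed per animal and class and tested with edgeR 4.0.16 (TMM, filterByExpr, animal as block, since each animal gave both sums, Benjamini-Hochberg over all genes tested), with DESeq2 1.42.0, other scalings, filters and cell limits, and each replicate left out as alternatives; the code was tested on simulated data. Genes that chose a class entered library sizes and no test. Shares have exact Clopper-Pearson intervals (scipy 1.17.1). Doublet scores came from Scrublet in scanpy 1.11.5. The edgeR p-values weigh the class difference within animals against its spread over 3 animals, estimated with information shared across genes. They are thus not a measure of the spread of each gene on its own. Named genes were members of the lists and, per comparison, the 12 highest and 10 lowest log2 fold changes among called genes with a symbol, the same direction in 3 of 3 animals and at least 50 CPM in the higher class. The cells, lists and rules were chosen with earlier results of these data known. One edited gene and some list genes are not reported singly here.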

Additional observations from a re-analysis of the deposited data

How the results depend on the processing

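The animal is the block of the 3 comparisons. With no replicate block 1753 genes were higher and 1588 lower than in all other cells, 597 and 116 against other epithelial cells and 678 and 403 against alveolar type 2 cells, and 124, 102 and 98 genes of ciliary structure were higher. DESeq2 called 1410, 91 and 305 genes lower in the 3 comparisons, in that order. Library totals gave 1138 lower than in all other cells, and 1459 higher and 273 lower than in alveolar type 2 cells. Depth-matched comparison cells gave 1320 lower than in all other cells. Without a filter on low counts 503 genes were lower than in other epithelial cells and 1141 higher than in alveolar type 2 cells. A mitochondrial limit of 10% left 405 higher and 48 lower than in other epithelial cells, and without members under 300 CPM of rule genes, an alternative chosen after seeing the data, 393 were lower. Limits of at least 2000 UMIs, at least 4 rule genes, no cell with a doublet score of at least 0.2 and no member with a PTPRC UMI left each of these counts of genes within 1.5 times its value, while at least 4 rule genes gave a mean share of members of 0.298%.

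Leaving out 1 replicate gave 1426 to 1697 higher and 1566 to 1849 lower genes against all other cells, 386 to 756 and 69 to 303 against other epithelial cells, and 634 to 641 and 363 to 428 against alveolar type 2 cells. The fewest against other epithelial cells came without replicate 1 and the most without replicate 2, and the fewest lower genes against all other cells came without replicate 1. Without replicate 3, 1619 genes were lower than in all other cells and 363 lower than in alveolar type 2 cells. For ciliary structure the ranges were 118 to 123, 80 to 102 and 92 to 102, and for the mean share 0.450% to 0.723%.

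Lowering the rule to at least 2 ciliary genes added 94 mostly deep cells. The mean share was then 0.937%, 248 genes were higher and 116 lower than in other epithelial cells, and 54 of ciliary structure were higher. The log2 fold changes against all other cells were then -1.17 for CD74, 0.46 for CA2, 1.33 for TUBB2B, 1.23 for ALK, -0.44 for IFIT2, 0.29 for TUBA1C and -0.66 for ISG15, against other epithelial cells 0.27 for CCND1, and against alveolar type 2 cells -1.55 for ALDH1A1, 0.16 for CCND1 and -1.09 for MGST1, each opposite in sign to the value above. Another 15, 5 and 2 of the named differences in the 3 comparisons were no longer called. Among them were the cell cycle genes UBE2C (-0.63, edgeR adjusted p = 0.26), TOP2A (-0.27, 0.60), MCM3 (-0.73, 0.065) and RRM1 (0.07, 0.77) against all other cells, and MYB (1.86, 0.10), RFX2 (0.92, 0.34) and HES6 (1.04, 0.21) against other epithelial cells. The cause was not tested. Depth limits the genes at few UMIs: a gene with 0 UMIs in the members may be at up to 2.58 CPM.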
